A study of Mus musculus with 16 samples.

Results

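Common myeloid progenitors (CMPs) from mice that drank antibiotic water were compared with CMPs from mice that drank control water, 3 arrays against 3. These 6 arrays, taken by their titles, are part of a set of 16 in which GMPs (granulocyte-monocyte progenitors) and cMoPs (committed monocyte progenitors) each have 5 arrays, 3 antibiotic and 2 control. All mice were wild-type C57BL/6. The treated mice were given ampicillin, metronidazole, neomycin and vancomycin, each at 1 g/L, for 3 weeks, and the drinking water of both groups contained 2% sucrose, so the controls carry the sucrose as well. Age and sex are not in the labels. The labels leave unsaid whether an array holds 1 mouse or several, and p-values here reflect only how far these RNA samples differ among themselves, which may be technical. The cells were sorted from bone marrow as negative for lineage antigens (Sca-1 among them) and CD105, positive for c-Kit, intermediate for CD16/32 and negative for CD115. CD34 was not part of that gate, and the removal of CD105+ cells takes out part of the erythroid branch. The RNA was amplified from 2.6 ng before it was hybridised.

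CMPs are bone marrow cells that can still form granulocytes, monocytes, megakaryocytes and red cells. They lie upstream of GMPs, which have lost the red cell and megakaryocyte fates, and of monocyte-committed precursors. Products of gut bacteria reach the marrow through the blood and are sensed there by pattern receptors, and a low tonic level of interferon keeps a set of antiviral genes partly on in blood-forming cells. Broad-spectrum antibiotics in drinking water are widely used to deplete the gut flora of mice, and the comparison asks which CMP transcripts differ after such depletion.

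The sorted cells carried transcripts that mark the population, though Kit and Cd34 are not particular to it. Kit, the stem cell factor receptor, had a mean log2 signal of 10.56 after antibiotics and 10.47 in controls, and Cd34, a sialomucin of progenitors, had 10.72 and 10.71. Gata1, the erythroid and megakaryocyte transcription factor, was at 8.30 and 8.08, against 5.22 and 5.20 in GMPs. Fcgr3, which encodes a protein seen by the CD16/32 antibody, was at 6.65 and 6.68, against 9.81 in GMPs of either water. Csf1r, which encodes CD115, was at 6.52 and 7.10, against 9.29 and 9.39 in cMoPs. The 6 arrays had median log2 signals over all probe sets of 4.06 to 4.17, and they correlated in pairs at r = 0.9846 to 0.9896 across genes, which are not independent replicates. The lowest of these correlations was between control 1 and control 2, both of the same group, and the highest was between control 3 and antibiotic 3. Along the first principal component of the 6 arrays (25.4% of the variance) control 2 stood apart at 38.4, and along the second (23.9%) control 1 stood apart at -36.

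Of 22180 genes tested, 9 were called at a false discovery rate under 0.2, which is 0.0406% of genes. Scin, Pkhd1l1, Asb17os, Fkbp7 and Mir186 rose (5 genes, 0.0225%), and F13a1, Tgfbi, Cyyr1 and Zfp811 fell (4 genes, 0.018%). At a rate under 0.05 there were 3 calls, Scin, Pkhd1l1 and F13a1. Before adjustment 750 genes were higher at p under 0.05 (3.38% of genes) and 856 were lower (3.86%), 1606 in all where 1109 would be expected by chance. Every antibiotic array lay above every control array for 1155 genes (5.21%) and below for 1411 (6.36%). The median difference over all genes was -0.01 on the log2 scale, with 10649 genes higher and 11473 lower. Differences were mostly small, and 51 genes differed at least 2-fold, 37 of them higher and 14 lower. The number of calls depended on single arrays: without antibiotic array 1 there were 2 and without antibiotic array 3 there were 39.

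**Figure D1:**
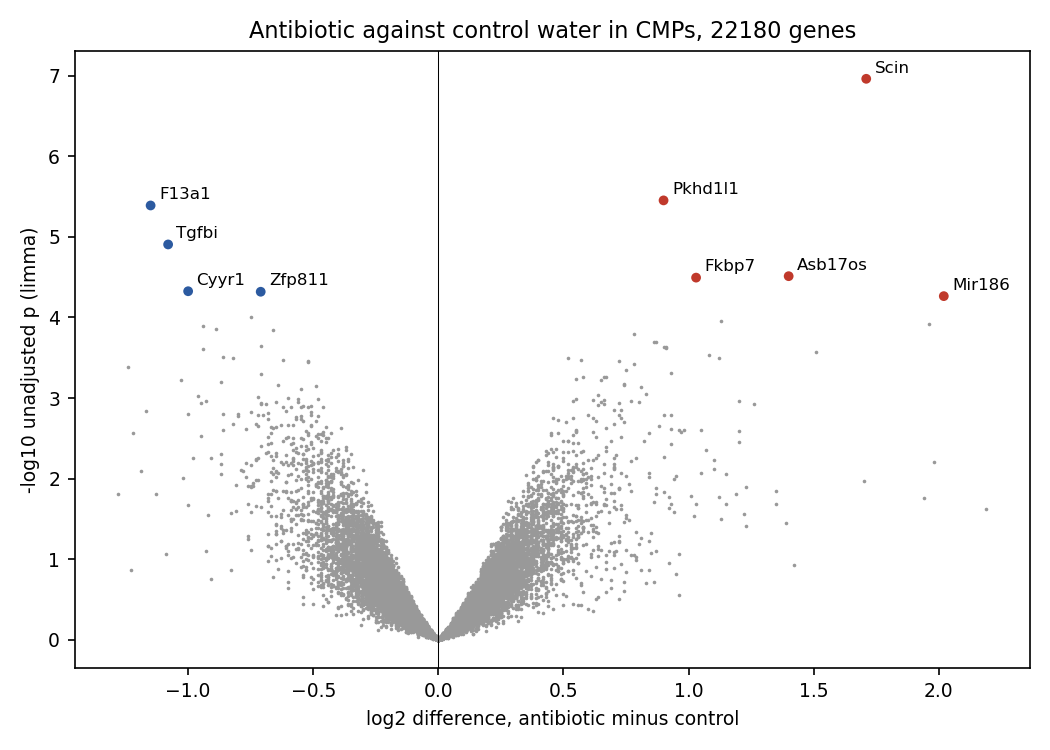
Each point is 1 of 22180 genes in CMPs, with its log2 difference (antibiotic minus control) on the horizontal axis and -log10 of its unadjusted limma p on the vertical axis. The 9 called genes are coloured and named, with Scin alone at the top and Mir186 farthest to the right among them at 2.02.

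Scin encodes scinderin, a calcium-dependent actin-severing and capping protein of the gelsolin family. Its log2 signal was 7.20, 7.06 and 6.66 in the antibiotic arrays and 5.15, 5.54 and 5.10 in the controls. All treated arrays lay above all controls, by more than 1 log2 unit at the nearest pair. Scin rose 3.27-fold (log2 difference 1.71 ± 0.18 SE, 95% interval 1.32 to 2.10, adjusted p = 0.00242 by limma). It was called in 27 of 27 alternative analyses, with adjusted p-values from 0.0014 to 0.185. In GMPs the difference was 0.55 ± 0.21 and in cMoPs -0.08 ± 0.21, and the control means were 4.48 and 4.13 there, beside 5.26 in CMPs. The other measured actin regulators of the same list, 16 in number, held no further call. Gsn, the founding gelsolin, differed by 0.29 ± 0.15, and Flii, a gelsolin-related actin remodeller, by -0.23 ± 0.11. The list of 17 had a median of -0.06, beside -0.01 over all genes.

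Pkhd1l1 encodes fibrocystin-L, a large membrane protein related to the product of the polycystic kidney disease gene. It gave 4.97, 4.69 and 4.63 after antibiotics and 3.74, 3.95 and 3.89 in controls. The groups did not overlap, and Pkhd1l1 rose 1.87-fold (0.90 ± 0.13, adjusted p = 0.0301). In GMPs and cMoPs it differed by -0.03 ± 0.14 and -0.17 ± 0.14 around control means of 2.74 and 2.80. Those means lie below the lower quartile of every CMP array (2.89 to 2.95). The table has no detection calls, so signals under that range are not shown to be above background. Leaving out antibiotic array 1 ended the call (0.80, adjusted p = 0.26).

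The largest called falls were in genes of the monocyte branch. F13a1 encodes the A subunit of coagulation factor XIII, the transglutaminase that cross-links fibrin, and is abundant in monocytes and macrophages. Its log2 signal was 6.13, 6.67 and 6.91 after antibiotics and 7.68, 7.84 and 7.64 in controls. Antibiotic array 1 was the lowest and array 3 the nearest to the controls, which lay close together (SD 0.11 against 0.40). F13a1 fell 2.22-fold (-1.15 ± 0.17, adjusted p = 0.0301), and it was called in 25 of 27 alternatives. The same probe set differed by -0.12 ± 0.18 in GMPs and -0.02 ± 0.18 in cMoPs, where the control levels were 9.11 and 10.59.

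Tgfbi encodes a secreted matrix protein induced by TGF-beta. It was at 5.45, 5.35 and 5.44 after antibiotics and at 6.44, 6.13 and 6.91 in controls. Here the treated arrays agreed closely and the spread lay among the controls, whose SD was 0.39. Tgfbi fell 2.11-fold (-1.08 ± 0.17, adjusted p = 0.0685). Its difference was -0.35 ± 0.19 in GMPs and 0.41 ± 0.19 in cMoPs. The call was lost without antibiotic array 1 (adjusted p = 0.338) and without antibiotic array 2 (adjusted p = 0.201). For these genes, as for all that follow, fewer cells of a type among the sorted CMPs and less RNA per cell cannot be told apart in bulk RNA.

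Fkbp7 encodes a peptidyl-prolyl isomerase of the endoplasmic reticulum that belongs to the FK506-binding family. The antibiotic arrays read 6.60, 5.92 and 6.54 and the controls 5.34, 5.28 and 5.36. Antibiotic array 2 lay nearest to the controls, and the groups did not overlap. Fkbp7 rose 2.04-fold (1.03 ± 0.18, adjusted p = 0.118). Most of its relatives lay on the other side: of 22 measured peptidyl-prolyl isomerases 7 were higher and 15 lower, with a median of -0.16, and 5 were lower at an unadjusted p under 0.05 (3.86% of all genes). After centring 18 were lower, and the 5 became 2 without antibiotic array 1 or control 3. Among those, Ppic, a cyclophilin of the secretory pathway, read 6.68, 6.80 and 7.28 after antibiotics and 7.92, 7.79 and 7.88 in controls (-0.94 ± 0.20, adjusted p = 0.231, not called). Ppic differed by -1.24 ± 0.22 in GMPs and -1.20 ± 0.22 in cMoPs too. Fkbp1a, the target of the drug FK506, differed by -0.37 ± 0.11, and Fkbp11, another isomerase of the endoplasmic reticulum, by -0.63 ± 0.26. The call of Fkbp7 was lost without antibiotic array 1 (adjusted p = 0.338) and without control 1, 2 or 3 (adjusted p = 0.295, 0.284 and 0.24).

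Asb17os, a transcript from the strand opposite Asb17, read 7.91, 7.63 and 7.46 after antibiotics and 6.45, 6.43 and 5.92 in controls. It rose 2.64-fold (1.40 ± 0.24, adjusted p = 0.118). The gene it overlaps, Asb17, had 5.44, 4.36 and 5.32 against 4.59, 4.39 and 4.65, so its groups overlapped (0.50 ± 0.23, adjusted p = 0.685). Asb17os was at 3.24 and 3.23 in control GMPs and cMoPs, and its differences there were -0.06 ± 0.27 and 0.16 ± 0.27. Whether the probes of each gene see only their own strand is not stated in the labels. The call was lost without antibiotic array 1 or 2 (adjusted p = 0.338 and 0.201) and without control 1 or 3 (adjusted p = 0.207 and 0.24).

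Cyyr1 encodes a small cysteine- and tyrosine-rich membrane protein. It gave 3.73, 4.08 and 3.56 after antibiotics and 4.79, 4.60 and 4.97 in controls, without overlap, and fell 2.00-fold (-1.0 ± 0.18, adjusted p = 0.133). A dimmer probe set of Cyyr1 had means of 2.51 and 2.41 and differed by 0.10, and with both averaged the difference was -0.45 (adjusted p = 0.462). Zfp811, a zinc finger gene, fell 1.64-fold (-0.71 ± 0.13, adjusted p = 0.133) from 2.84, 2.92 and 2.95 in controls to 2.18, 2.21 and 2.19. These signals lie at or under the lower quartiles of the arrays and are not shown to be above background. Without antibiotic array 1 the adjusted p was 0.338 for both genes, and without control 1 it was 0.326 for Cyyr1 and 0.289 for Zfp811. Further arrays ended these calls as well: antibiotic 3 (adjusted p = 0.225), control 3 (0.265) and cMoP antibiotic 1 (0.201) for Cyyr1, and antibiotic 2 (0.227), control 2 (0.286), control 3 (0.24) and cMoP antibiotic 3 (0.206) for Zfp811.

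**Figure D2:**
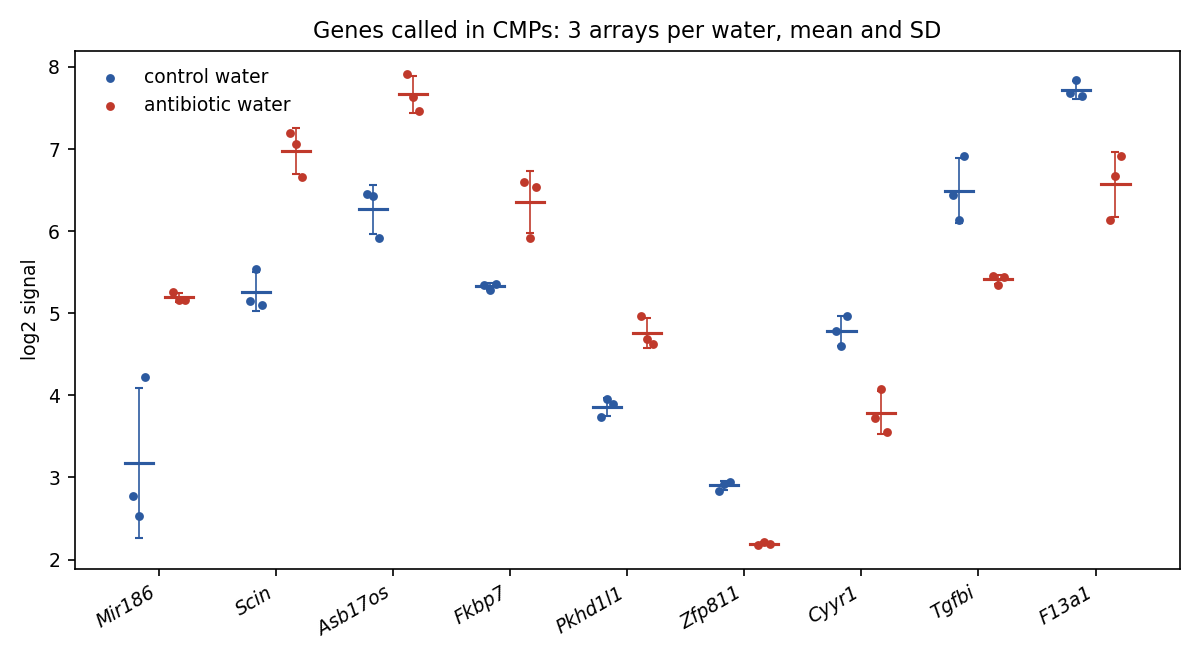
Log2 signal of the 9 called genes in each CMP array (points, 3 per water), with the group mean (thick line) and SD (bar), blue for control and red for antibiotic water. No gene's groups overlap, and the widest spread is that of Mir186 in the controls, from 2.53 to 4.22.

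Mir186 is a microRNA gene within Zranb2, which encodes an RNA-binding splicing protein. MicroRNAs pair with messenger RNAs mainly through their seed, bases 2 to 8, and lower the output of those messages. The array probes the gene and does not tell its mature arms apart. Both arms are shown because Mir186 had the highest called difference, with those of Mir374b and the 3p arm of Mir107 as the microRNA genes next in order of p. Sequences are from RefSeq on GRCm38.p6, written 5′ to 3′ with the seed in capitals. Mir186 lies on the plus strand at chr3:157544285-157544306 (5p) and chr3:157544324-157544345 (3p). Mir374b is on the minus strand at chrX:103573112-103573133 (5p) and chrX:103573075-103573096 (3p), and Mir107 on the minus strand at chr19:34820700-34820722 (3p).
miR-186-5p: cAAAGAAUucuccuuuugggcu
miR-186-3p: gCCCUAAGgugaauuuuuuggg
miR-374b-5p: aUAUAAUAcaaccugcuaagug
miR-374b-3p: gGUUGUAUuaucauuguccgag
miR-107-3p: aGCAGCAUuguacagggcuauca

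The seed of miR-107-3p is shared with miR-103-3p, and the other 4 seeds printed belong to 1 mature microRNA each among the 1738 in the table. Mir186 gave 5.26, 5.16 and 5.16 after antibiotics and 2.78, 2.53 and 4.22 in controls. The treated arrays agreed closely, and control 3 stood above the other controls, of which both were below the lower quartile of the arrays. Mir186 rose 4.05-fold (2.02 ± 0.36, adjusted p = 0.134), and the size rests on control signals not shown to be above background. Its host Zranb2 had 9.14, 9.12 and 9.25 against 9.10, 9.19 and 9.26, with a difference of -0.01 ± 0.12. In cMoPs Mir186 differed by 1.27 ± 0.41 and in GMPs by -0.17 ± 0.41. The call was lost without antibiotic array 1 or 2 (adjusted p = 0.338 and 0.24) and without control 1 or 2 (adjusted p = 0.361 and 0.298).

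No other microRNA gene of 483 measured was called. Mir374b, within the long noncoding RNA Ftx, gave 3.59, 2.94 and 4.17 against 2.24, 2.73 and 2.14 (1.20 ± 0.30, adjusted p = 0.34). The control signals of Mir374b lie under the lower quartiles of the arrays and are not shown to be above background. Mir107, within the pantothenate kinase gene Pank1, gave 3.98, 3.96 and 4.08 against 5.70, 4.27 and 4.90 (-0.95 ± 0.27, adjusted p = 0.398). Their host transcripts differed by -0.19 and 0.04. Of the 483 genes, 221 were higher and 261 lower with a median of -0.02, and 230 had means below the lower quartiles. At p under 0.05 by limma, 19 were higher and 19 lower (3.93% each, against 3.38% and 3.86% of all genes).

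Just past the threshold, with adjusted p between 0.215 and 0.237, lay genes of several functions, none of them called. Srf, the serum response factor that drives actin and immediate early genes, read 7.19, 7.44 and 7.46 against 8.30, 8.19 and 7.86 (-0.75 ± 0.14, adjusted p = 0.215). Fabp4, a fatty-acid carrier of macrophages and endothelium, read 6.81, 5.96 and 6.50 against 5.49, 4.31 and 3.60 (1.96 ± 0.38, adjusted p = 0.215), and its controls were wide, with an SD of 0.95. Maoa, a monoamine oxidase, differed by -0.66 ± 0.13 and Selenom, a selenoprotein of the endoplasmic reticulum, by -0.89 ± 0.18 (adjusted p = 0.215 for both). On the higher side, Dhrs3, which reduces retinal to retinol, differed by 0.86 ± 0.18 and Dhrs11, a steroid dehydrogenase of the same superfamily, by 0.78 ± 0.16. Slc16a6, a carrier of the monocarboxylate family, differed by 0.52 ± 0.11 with arrays at 7.19, 7.34 and 7.44 against 6.68, 6.82 and 6.90. Rab27a, a small GTPase that docks secretory granules, differed by -0.52 ± 0.11 with arrays at 7.95, 7.98 and 7.88 against 8.54, 8.32 and 8.51. None of these genes overlapped between the waters.

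Genes induced by type I interferon lay lower after antibiotics as a group, although no single member was called. The members of this and the other lists were chosen with earlier results of these data known, so their counts are not independent support. Of 53 measured, 43 were lower and 10 higher, with a median of -0.27 beside -0.01 over all genes. At an unadjusted p under 0.05, 16 were lower (30.2%, against 3.86% of all genes) and 0 were higher by limma. Every antibiotic array lay below every control for 15 members (6.36% of all genes) and above for 1. The mean log2 signal over the list was 6.09, 6.04 and 6.26 in the antibiotic arrays and 6.42, 6.38 and 6.44 in the controls, so the groups did not overlap, and antibiotic array 3 was nearest. Over the 25 alternatives that kept all genes, the median stayed between -0.31 and -0.17, the number lower between 41 and 45, and the number lower at p under 0.05 between 13 and 21, with at most 1 member higher at that p. With genes above the median gene only, 37 members were lower and 6 higher, with a median of -0.35.

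Oas3, Sp100 and Ifitm3 had the smallest p of the list, which holds induced genes and not the receptors. Oas3, a synthetase of the 2-5A signal that activates RNase L, gave 4.52, 4.01 and 4.53 against 5.10, 5.17 and 5.38 (-0.86 ± 0.19, adjusted p = 0.231). Ifitm3, a membrane protein that blocks virus entry, gave 10.29, 10.20 and 10.38 against 10.89, 10.83 and 10.79 (-0.55 ± 0.14, adjusted p = 0.34). Sp100, a component of PML nuclear bodies, gave 7.99, 7.74 and 7.96 against 8.47, 8.36 and 8.42 (-0.52 ± 0.11, adjusted p = 0.231). In all 3 genes each treated array was below each control, with a gap wider than the SD of either group. A second bright probe set of Sp100 differed by -0.29. Parp14, an ADP-ribosyltransferase, differed by -0.51 ± 0.13, with group SDs of 0.06. Oas3 differed by -0.95 ± 0.21 in GMPs and -0.45 ± 0.21 in cMoPs, and Ifitm3 by -0.60 ± 0.16 and -0.26 ± 0.16. Ifi203, an entry of the list, was not among the measured genes. Ifi203-ps, outside the list, was higher in CMPs without overlap (1.08 ± 0.23, adjusted p = 0.231 by limma, not called).

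Receptors and signalling genes were listed apart from the induced genes, and the lists were not tested against each other. Ifnar1 and Ifnar2, the subunits of the type I receptor, differed by -0.06 ± 0.12 and -0.04 ± 0.12. Stat2, which joins the transcription factor complex that carries the signal to the nucleus, gave 6.17, 6.57 and 6.50 against 6.70, 7.12 and 6.71 (-0.43 ± 0.17, adjusted p = 0.624). Irf9, the DNA-binding subunit of that complex, differed by -0.47 ± 0.23 with overlapping arrays. Of 19 receptor and signalling genes, 13 were lower, 1 of them at p under 0.05 (5.26%, against 3.86% of all genes), and the median was -0.06. The list of genes induced by interferon-gamma, which shares several regulators with the type I list, had 20 of 27 lower and a median of -0.21, with 6 lower (22.2%, against 3.86% of all genes) and 0 higher at p under 0.05 by limma. Gbp5, a guanylate-binding GTPase of cell-autonomous defence, read 3.18, 3.86 and 3.67 against 4.47, 4.32 and 4.80 (-0.96 ± 0.23, adjusted p = 0.34). Its relative Gbp7 read 7.60, 7.75 and 7.26 against 8.39, 8.40 and 8.14 (-0.77 ± 0.21, adjusted p = 0.39). Psme2, a proteasome activator subunit, differed by -0.69 ± 0.21 and Tap1, the peptide transporter of antigen presentation, by -0.40 ± 0.15. The 6 lower genes of the interferon-gamma list became 3 without control 2.

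The complex of STAT and IRF9 proteins binds the interferon-stimulated response element, whose core repeats GAAA with a spacer. Promoters from 250 bases before to 50 after each RefSeq start (GRCm38.p6) were searched on both strands for GAAA, any 2 bases and GAAA again, overlapping matches counted. The letters occurred in 1131 of 32851 promoters (3.44%) and in 657 of the 16990 measured genes with a promoter in the table (3.87%). Among the type I list they occurred in 20 of 40 genes (50%), in the interferon-gamma list in 9 of 19 (47.4%), and in the monocyte list described next in 6 of 37 (16.2%). S phase genes (0 of 41) and erythroid genes (0 of 23) had none in this window. The 20 type I members with the letters had a median difference of -0.18, with 14 lower, and the 20 without had -0.24, with 17 lower. The 250 bases before the start of Oas3 and a 27-base stretch at the start of Ifitm3 are shown as the promoters of the 2 members with the smallest p in which the letters, in capitals, were found. Oas3 is on the minus strand, chr5:120777660-120777909, with the match starting 75 bases before the start. Ifitm3 is on the minus strand, chr7:141010716-141010742, with matches 2 and 19 bases after it.
Oas3: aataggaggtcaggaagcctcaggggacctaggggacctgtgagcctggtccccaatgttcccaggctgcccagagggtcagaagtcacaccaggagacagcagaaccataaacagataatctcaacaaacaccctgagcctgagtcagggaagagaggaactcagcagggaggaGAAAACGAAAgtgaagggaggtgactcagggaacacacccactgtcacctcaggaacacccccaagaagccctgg
Ifitm3: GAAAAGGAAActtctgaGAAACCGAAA

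The monocyte list held 2 of the 9 called genes, F13a1 and Tgfbi. Its members too were chosen with earlier results of these data known. Of 42 measured members 31 were lower and 11 higher, with a median of -0.20. At p under 0.05, 15 were lower (35.7%, against 3.86% of all genes) and 0 higher by limma, and 11 had every antibiotic array below every control (6.36% of all genes) against 0 above. After quantile normalization 26 were lower and 16 higher. Averaged over its members, the list read 6.46, 6.38 and 6.60 after antibiotics and 6.69, 6.74 and 6.80 in controls, again without overlap. The 15 lower members became 10 without antibiotic array 1 and 9 without antibiotic array 2, and the list median without array 2 was -0.12. These genes also mark more mature monocyte precursors, of which the sort removed cells with CD115 or the lineage antigen CD11b on their surface. No member was at 0, since the array reports a signal for every probe set, and 1 of the 42 had means below the lower quartiles. The part of remaining cells of this kind in the difference was not tested.

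Receptors that guide monocytes were among the lower members. Cx3cr1, the fractalkine receptor, gave 6.38, 6.59 and 6.90 against 7.39, 7.64 and 7.01 (-0.72 ± 0.19, adjusted p = 0.357). Ccr2, the receptor that lets monocytes leave the marrow, gave 7.12, 6.57 and 7.14 against 7.33, 7.59 and 7.86 (-0.65 ± 0.18, adjusted p = 0.384). Csf1r, the receptor for macrophage colony-stimulating factor whose protein the gate excluded, gave 6.50, 6.42 and 6.63 against 7.06, 7.18 and 7.05 (-0.58 ± 0.17, adjusted p = 0.425). In each of the 3 every treated array was below every control. Tifab, a regulator of TRAF6 signalling, gave 6.34, 6.82 and 7.32 against 7.90, 7.82 and 7.58 (-0.94 ± 0.19, adjusted p = 0.215). Emb, the membrane glycoprotein embigin, differed by -0.55 ± 0.13. Ly6c2, which encodes the monocyte antigen Ly6C, gave 9.46, 9.79 and 10.74 against 10.63, 10.20 and 10.89 and overlapped between the waters (-0.58 ± 0.24, adjusted p = 0.655).

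**Figure D3:**
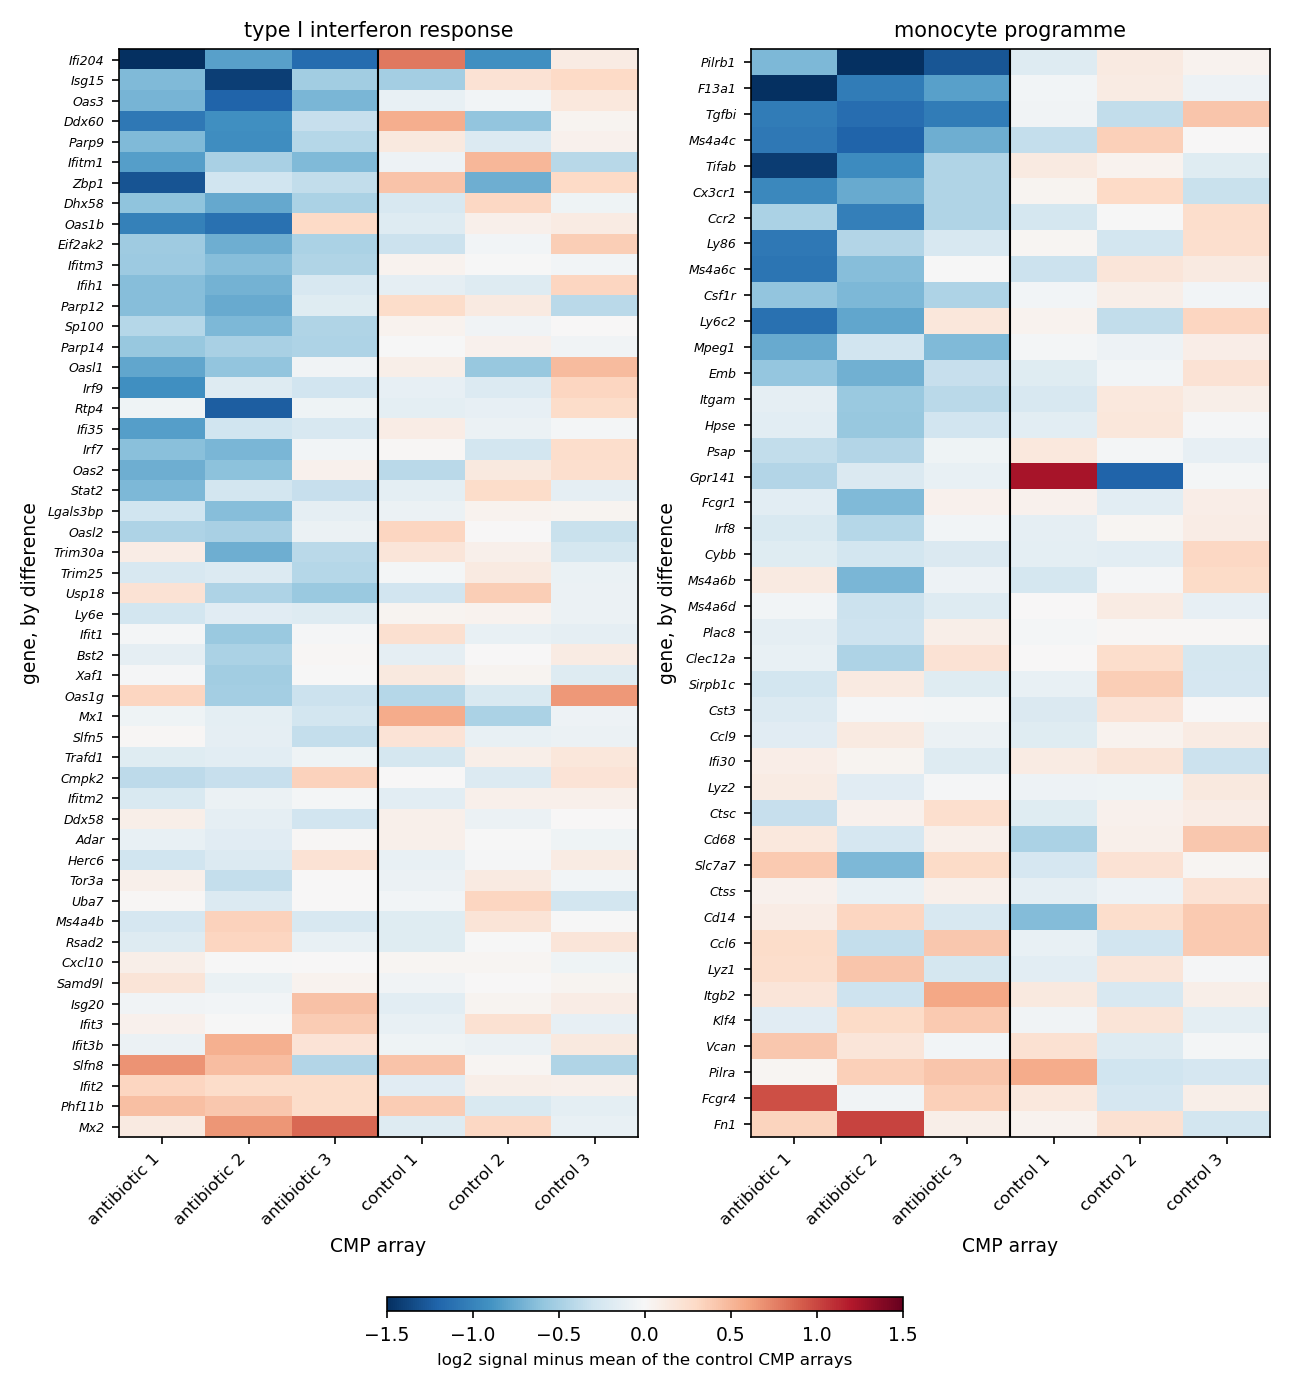
Log2 signal of each measured gene of the type I interferon list (left, 53 genes) and the monocyte list (right, 42 genes) in each CMP array, minus the mean of the 3 control arrays, with genes ordered by difference and the colour scale ending at -1.5 and 1.5. Blue fills the upper left of both panels, where antibiotic arrays lie below the controls. Antibiotic array 3 is paler there than arrays 1 and 2 for F13a1 and Tifab, and for Ly6c2 it lies above the control mean.

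The transcription factors of the granulocyte and monocyte branches were more evenly spread: of 18 measured 8 were higher and 10 lower, with a median of -0.08. At p under 0.05, 1 was lower by limma (5.56%, against 3.86% of all genes). Irf8 and Klf4, which monocyte formation needs, differed by -0.23 ± 0.24 and 0.17 ± 0.21. Cebpa, required for the step from CMP to GMP, differed by -0.31 ± 0.23. Among genes of primary granules, Prtn3, the serine protease proteinase 3, gave 9.75, 9.86 and 10.45 against 10.81, 10.63 and 11.09 (-0.82 ± 0.18, adjusted p = 0.231). Elane, neutrophil elastase, gave 9.03, 9.72 and 10.36 against 10.44, 10.01 and 10.88 (-0.74 ± 0.26, adjusted p = 0.519), with overlap. Mpo, the myeloperoxidase of the same granules, differed by -0.22 ± 0.12. In both proteases antibiotic array 1 was the lowest and array 3 the highest of the treated arrays. Over the list, 13 of 21 were lower with a median of -0.14, and that median was -0.28 without antibiotic array 3 and 0.02 without control 3. The genes of late granules had 13 higher and 14 lower of 27 and a median of -0.02.

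The red cell branch lay slightly higher. Of 30 erythroid genes 20 were higher, with a median of 0.11, 5 were higher (3.38% of all genes) and 0 lower at p under 0.05 by limma, and 8 had every treated array above every control (5.21% of all genes) against 0 below. After quantile normalization 23 were higher and 7 lower. The 5 became 3 without antibiotic array 3 and 2 without control 2. Rhag, the Rh-associated glycoprotein of the red cell membrane, gave 8.75, 8.88 and 8.93 against 8.26, 7.86 and 8.33 (0.70 ± 0.18, adjusted p = 0.357). Its partner Rhd gave 8.49, 8.35 and 8.64 against 8.0, 8.18 and 7.92 (0.46 ± 0.14, adjusted p = 0.474). Both were higher in all treated arrays, as were Tfrc, the transferrin receptor (0.37 ± 0.15), and Cldn13, a claudin of erythroid cells (0.45 ± 0.18). The mean level of the list was 8.20 to 8.26 after antibiotics and 8.07 to 8.19 in controls. The regulators of this branch and of megakaryocytes had 12 higher and 9 lower of 21 and a median of 0.02. Ikzf2, the factor Helios, differed by 0.47 ± 0.18 (adjusted p = 0.606) with overlap, Gata1 differed by 0.22 ± 0.16 and Klf1, a globin activator, by -0.29 ± 0.21.

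Megakaryocyte genes were split, with 14 higher and 15 lower of 29 and a median of -0.01. At p under 0.05, 6 were higher (3.38% of all genes) and 1 lower (3.86%). Those counts were 3 and 3 without control 1, 3 and 2 without antibiotic array 3, and 4 and 2 without control 3. Clec1b, the podoplanin receptor of platelets, gave 4.26, 3.78 and 4.11 against 3.32, 3.39 and 3.51 (0.64 ± 0.16, adjusted p = 0.34). Plek, pleckstrin, differed by 0.58 ± 0.21 and Tubb1, the platelet tubulin, by 0.48 ± 0.16. Tubb1 overlapped between the waters, and its control mean of 2.64 is not shown to be above background. On the lower side Slamf1, the stem cell marker CD150, gave 4.22, 4.85 and 4.75 against 4.88, 5.40 and 5.11 (-0.52 ± 0.18, adjusted p = 0.505).

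Among 37 stem and multipotent progenitor genes 22 were higher and 15 lower, with a median of 0.03. Members differed in both directions: 6 were higher (3.38% of all genes) and 5 lower (3.86%) at p under 0.05. Those counts were 3 and 2 without antibiotic array 1, 6 and 3 without control 2, and 3 and 5 without control 3. Flt3, the receptor of lymphoid-primed and dendritic progenitors, gave 8.83, 8.75 and 8.28 against 7.97, 8.06 and 8.20 (0.54 ± 0.15, adjusted p = 0.397). Robo4, a guidance receptor that holds stem cells in the marrow, gave 4.80, 4.83 and 5.22 against 3.93, 4.47 and 4.23 (0.74 ± 0.17, adjusted p = 0.31). Tie1, a receptor kinase of endothelium and early progenitors, gave 5.05, 5.19 and 4.58 against 5.90, 5.76 and 6.00 (-0.95 ± 0.24, adjusted p = 0.34). None of the 3 overlapped between the waters.

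Cytokine and growth factor receptors were likewise divided, 15 higher and 17 lower of 32. At p under 0.05 by limma, 4 were higher (12.5%, against 3.38% of all genes) and 5 lower (15.6%, against 3.86%). The signalling chain of the interleukin-1 receptor, Il1r1, gave 7.92, 8.13 and 7.87 against 7.14, 7.08 and 7.09 (0.87 ± 0.18, adjusted p = 0.231). Its groups were tight, with SDs of 0.14 and 0.03, and did not overlap. The accessory chain Il1rap gave 4.46, 4.52 and 4.44 against 4.78, 5.16 and 4.87 (-0.46 ± 0.12, adjusted p = 0.34), and its other probe sets, both dim, differed by -0.04 and -0.10. Il18r1, the interleukin-18 binding chain, gave 5.14, 4.38 and 4.67 against 3.93, 4.10 and 3.82 (0.78 ± 0.17, adjusted p = 0.237). Pdgfrb, a platelet-derived growth factor receptor of stromal cells, gave 7.69, 8.36 and 7.62 against 7.04, 6.96 and 7.25 (0.81 ± 0.19, adjusted p = 0.319). The stromal and endothelial list as a whole had 12 of 26 higher and a median of -0.02.

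Genes of antigen presentation by MHC class II differed in both directions. H2-Aa, the alpha chain of I-A, gave 5.45, 5.58 and 5.47 against 3.92, 4.55 and 4.65 (1.13 ± 0.22, adjusted p = 0.215). H2-Ab1, the beta chain of the same molecule, gave 8.24, 8.21 and 7.95 against 7.82, 7.69 and 7.69 (0.40 ± 0.17, adjusted p = 0.646), and H2-Eb1 differed by 0.36 ± 0.16 with overlap. Ciita, the master activator of these genes, differed by -0.21 ± 0.17 and H2-DMa, a chain of the peptide-loading factor, by -0.31 ± 0.17. In the list with dendritic cell genes 18 of 26 were higher, with a median of 0.15. At p under 0.05, 4 were higher by limma (3.38% of all genes) and 0 lower, and the 4 became 2 without antibiotic array 2. Markers of B-lineage cells, which also carry MHC class II and of which those with B220 were removed by the lineage panel, had 19 of 26 higher and a median of 0.17. At p under 0.05, 5 were higher by limma (3.38% of all genes) and 0 lower, and the 5 became 2 without antibiotic array 1 or control 1 and 3 without antibiotic array 3 or control 2. Vpreb3, of the pre-B cell receptor, differed by 0.56 ± 0.20 and Cd24a, a surface glycoprotein of many progenitors, by 0.34 ± 0.13, while the B-cell factor Pax5 differed by 0.11 ± 0.20 and Ebf1 by 0.15 ± 0.27. The mean level of the B list was 4.99 to 5.27 after antibiotics and 4.93 to 5.05 in controls, and its part in the class II values was not tested. Jchain, the joining chain of antibodies, read 4.96, 2.65 and 4.05 against 2.64, 2.67 and 3.27 (1.03 ± 0.40), high in antibiotic arrays 1 and 3 only.

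Other cell types showed no common shift. Genes of eosinophils, basophils and mast cells had 15 higher and 14 lower of 29 and a median of 0.01. Within them Cpa3, the mast cell carboxypeptidase that is also made by early progenitors, gave 9.89, 10.01 and 9.86 against 8.90, 9.08 and 9.04 (0.91 ± 0.19, adjusted p = 0.231). Epx, eosinophil peroxidase, gave 4.15, 4.09 and 5.39 against 5.59, 5.71 and 5.26 and overlapped (-0.98 ± 0.30, adjusted p = 0.479). Cpa3 differed by 0.58 ± 0.21 in GMPs and 0.93 ± 0.21 in cMoPs. T, NK and innate lymphoid genes had 13 of 27 higher and a median of -0.01, and their Cd3d and Cd3e, subunits of one receptor, differed in opposite directions (0.98 ± 0.27 and -0.45 ± 0.19). Cd3d had a control mean of 2.97 and Cd3e an antibiotic mean of 2.94, close to the lower quartiles of the arrays. Macrophage genes had 9 of 24 higher and a median of -0.06.

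Among genes of DNA replication and S phase most differences were small, from -0.47 to 0.30. Of 50 S phase genes 39 were lower and 10 higher (35 and 15 after quantile normalization, 44 and 6 after centring), with a median of -0.11 that ran from -0.16 to -0.08 over the alternatives. The mean level of the list was 8.33, 8.30 and 8.34 after antibiotics and 8.44, 8.44 and 8.43 in controls. Treated arrays were all below the controls for this mean, and 13 of the 50 genes had every treated array below every control (6.36% of all genes). Clspn, the checkpoint mediator claspin, gave 6.41, 6.63 and 6.42 against 7.11, 6.84 and 6.93 (-0.47 ± 0.13, adjusted p = 0.393). Gins2, of the replicative helicase, differed by -0.43 ± 0.15 and Mcm2, another helicase subunit, by -0.28 ± 0.12. Of 56 genes of G2 and M phase 40 were lower and 16 higher, with a median of -0.05, but the split was 30 and 26 after quantile normalization and 47 and 9 after centring. At p under 0.05, 5 were lower by limma (3.86% of all genes) and 0 higher, and the 5 became 3 without antibiotic array 2, control 2 or control 3. Ube2c, a ubiquitin enzyme of mitotic exit, differed by -0.50 ± 0.15, Kif2c, a microtubule depolymerase, by -0.44 ± 0.13, and Aurkb, a mitotic kinase, by -0.40 ± 0.13. No gene of either phase was called. At p under 0.05, 6 S phase genes were lower by limma (12%, against 3.86% of all genes). The 6 became 3 without antibiotic array 1, 2 without control 1 and 4 without each of the other CMP arrays.

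In sterol synthesis and uptake 17 of 24 genes were lower (20 after centring), with a median of -0.16 and 3 lower at p under 0.05 (3.86% of all genes). Fdps, which makes farnesyl pyrophosphate, gave 7.62, 7.93 and 7.92 against 8.24, 8.54 and 8.09 (-0.47 ± 0.15, adjusted p = 0.479). Nsdhl, a sterol dehydrogenase, differed by -0.53 ± 0.17. In glucose metabolism 17 of 25 genes were lower and the median was -0.04. Pkm, pyruvate kinase, gave 9.50, 9.53 and 9.50 against 9.82, 9.80 and 9.81 (-0.30 ± 0.10, adjusted p = 0.492), a small difference that was not called. Its group SDs were 0.02 and 0.01, but SDs from so few arrays are uncertain, and the SE of the fit was 0.10. Hk3, the hexokinase of myeloid cells, differed by -0.47 ± 0.14. Fbp1, a gluconeogenic phosphatase, gave 5.10, 5.45 and 5.78 against 3.29, 4.91 and 4.93 (1.07 ± 0.32, adjusted p = 0.471), with control 1 far below the other controls.

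Among immediate early genes, which respond within minutes to growth factors and to handling of cells, 3 of 25 were lower at p under 0.05 and 0 higher by limma. The share lower was 12%, against 3.86% of all genes, and the list median was -0.01. Without control 2 there was 1 lower and 1 higher. Fos gave 4.32, 3.98 and 3.98 against 5.51, 6.09 and 4.24 (-1.19 ± 0.39, adjusted p = 0.492), and control 3 lay beside the treated arrays. Egr1 gave 4.95, 5.48 and 5.81 against 6.26, 6.47 and 5.89 (-0.79 ± 0.26, adjusted p = 0.492). Both read high in controls 1 and 2 and low in control 3, an order that Srf shared. Of 27 genes of the unfolded protein and integrated stress responses 17 were lower and 10 higher, with a median of -0.09. Calr, calreticulin, differed by -0.32 ± 0.11 and Pdia6, a disulfide isomerase, by -0.33 ± 0.12, while Edem1, which sends misfolded glycoproteins to degradation, differed by 0.28 ± 0.12 with every treated array above every control.

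Receptors for microbial products bear on the treatment itself, and none was called. Of 26 sensors 11 were higher and 15 lower, with a median of -0.06. Tlr4, the receptor for lipopolysaccharide, differed by 0.13 ± 0.19, and Tlr2, the receptor for bacterial lipoproteins, by -0.01 ± 0.14. Ly96, the partner of Tlr4 that binds lipopolysaccharide, gave 5.06, 5.33 and 4.85 against 4.62, 4.51 and 4.43 (0.56 ± 0.18, adjusted p = 0.492). Nlrc4, an inflammasome sensor scaffold, gave 5.09, 4.54 and 4.91 against 4.24, 4.17 and 3.95 (0.73 ± 0.24, adjusted p = 0.492). Lbp, which carries lipopolysaccharide in serum, gave 7.18, 7.01 and 7.71 against 8.04, 7.71 and 8.10 (-0.65 ± 0.16, adjusted p = 0.34), with antibiotic 3 level with control 2. The 29 adaptors and NF-kB genes had 12 higher and 17 lower and a median of -0.02, and Myd88, the shared adaptor, differed by 0.01 ± 0.16.

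**Figure D4:**
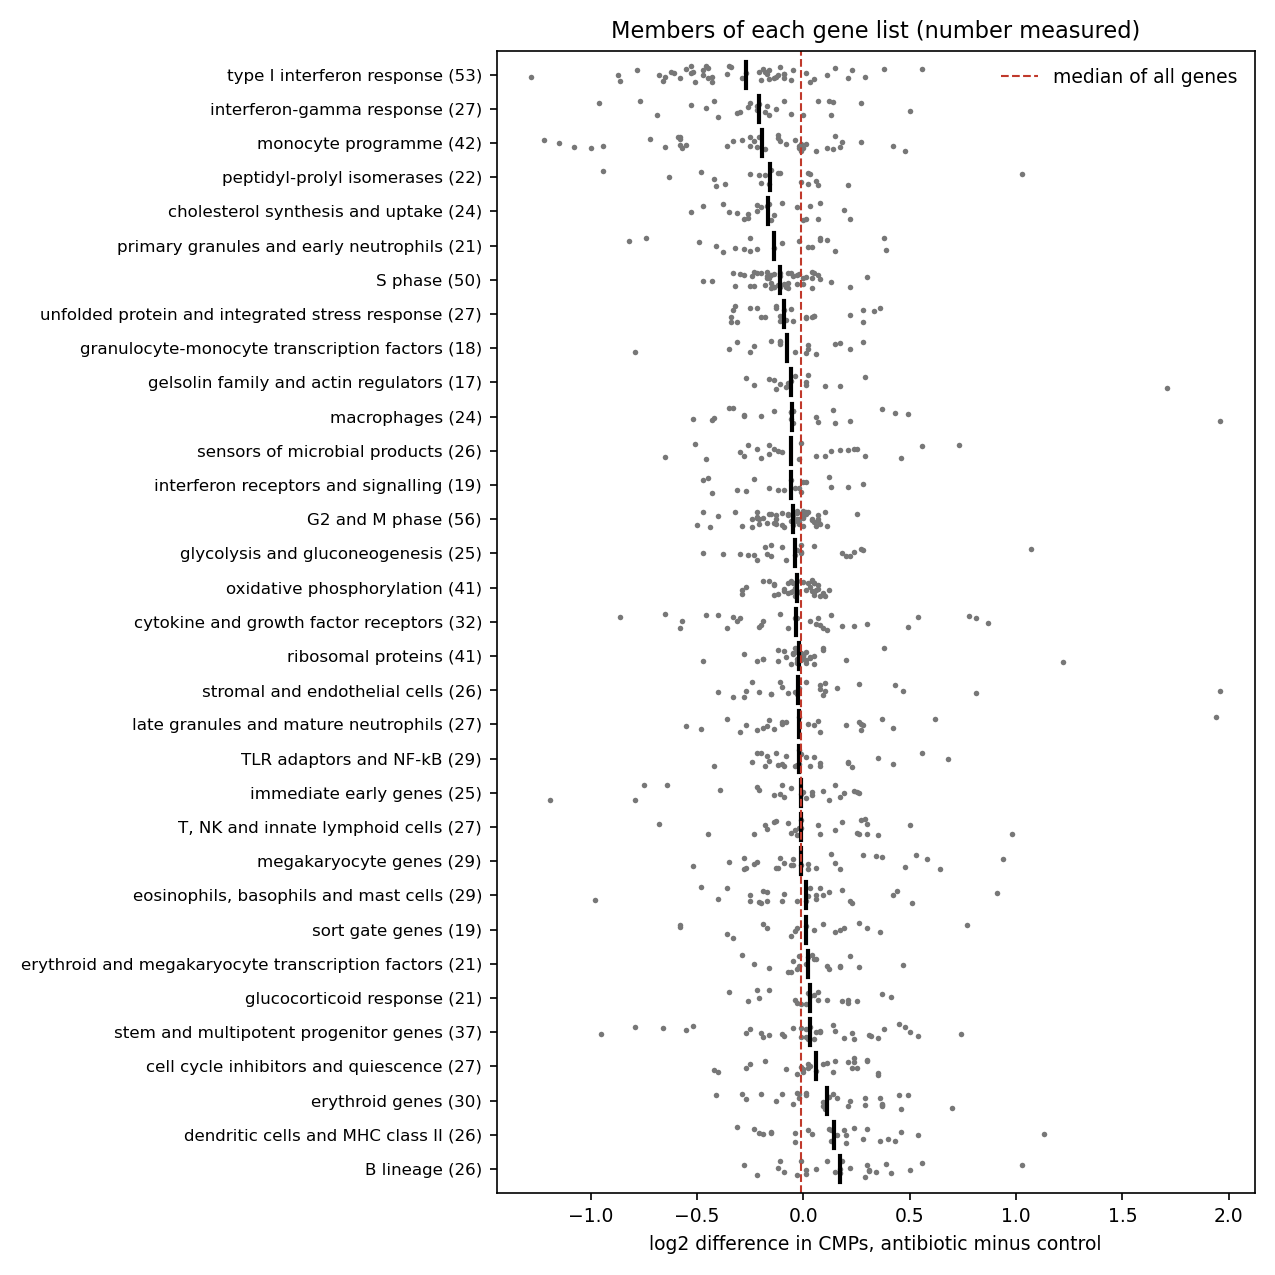
Log2 difference in CMPs (antibiotic minus control, horizontal axis) of every measured member of each gene list (grey points), with the list median (black bar) and the median of all genes (dashed line, -0.01), lists ordered by median. The type I interferon list is at the top at -0.27 and the B lineage list at the bottom at 0.17, and all medians are small beside the range of the members.

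GMPs and cMoPs have control arrays of their own, so their differences share no array with those of CMPs. The labels do not say whether the cell types came from the same mice, so independence is not shown. Arrays of the same number and water deviated together at r = -0.014 to 0.137 between CMPs and the other progenitors. Of the 856 genes lower in CMPs at p under 0.05, 63.1% were lower in GMPs and 56.1% in cMoPs, against 52.3% and 52.2% of all genes. Of the 750 higher in CMPs, 40.3% and 47.9% were lower there. Lists differed in how far they ran alike: the type I interferon median was -0.27 in CMPs, -0.14 in GMPs and -0.19 in cMoPs, while the monocyte median was -0.20, -0.06 and 0.11. The S phase medians were -0.11, -0.15 and 0.01.

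Whether the response of CMPs differed from the mean of the other progenitors was tested in the same fit, and 8 genes (0.0361%) were called. Clec4a2, an inhibitory C-type lectin of myeloid cells, has close paralogs that its probes may not tell apart. It gave 3.87, 3.78 and 3.52 against 4.45, 3.90 and 4.46 in CMPs (-0.55 ± 0.16). In GMPs and cMoPs it differed by 1.15 ± 0.18 and 1.89 ± 0.18, so the CMP response minus that of the others was -2.07 ± 0.21 (adjusted p = 0.000846). That call was kept in 26 of 26 alternatives. Fcnb, ficolin B, a pattern-recognition lectin of granules, differed by -0.41 ± 0.20 in CMPs against 1.09 ± 0.23 and 1.17 ± 0.23 (CMPs minus others -1.54 ± 0.26, adjusted p = 0.111). BC051142 differed by -0.44 ± 0.15 against 1.11 ± 0.17 and 0.29 ± 0.17 (-1.14 ± 0.20, adjusted p = 0.111), around means in control GMPs and cMoPs of 2.62 and 2.85 that are not shown to be above background.

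Of the genes called in CMPs, 3 were also called as differing from the other progenitors: Scin (1.48 ± 0.23), Pkhd1l1 (1.00 ± 0.16) and Cyyr1 (-1.34 ± 0.23), each with adjusted p = 0.111. These values use the CMP arrays that chose the genes. That of Cyyr1, whose dimmer probe set did not fall in CMPs, ran from -1.48 to -0.59 over the alternatives. H2-Aa responded higher in CMPs by 1.59 ± 0.28 (adjusted p = 0.117), with -0.41 ± 0.24 in GMPs and -0.51 ± 0.24 in cMoPs. Zik1, a zinc finger gene, gave 6.58, 6.22 and 6.67 against 5.73, 5.83 and 5.91 in CMPs and responded higher by 1.11 ± 0.20 (adjusted p = 0.117). For F13a1 and Tgfbi the difference of responses was -1.08 ± 0.21 and -1.11 ± 0.22 and was not called (adjusted p = 0.229 and 0.233). This count too moved with single arrays. It was 1 without antibiotic array 1 or control 3 of the CMPs, 2 without GMP antibiotic 1, 3 without cMoP control 1, 4 without CMP control 1 or cMoP antibiotic 3, 13 without CMP control 2, and 16 without CMP antibiotic 3.

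**Figure D5:**
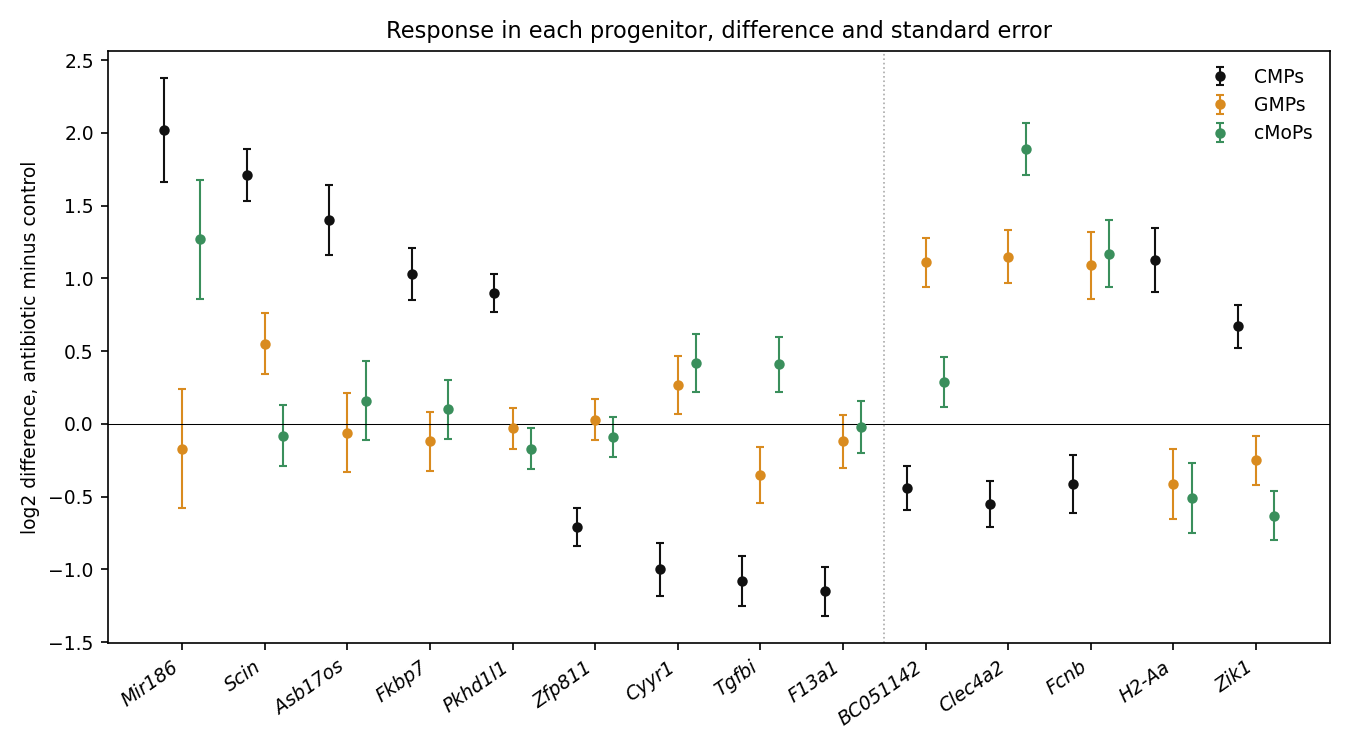
Log2 difference (antibiotic minus control) with its standard error in CMPs (black), GMPs (orange) and cMoPs (green) for the 9 genes called in CMPs (left of the dotted line) and the other 5 genes whose response in CMPs was called as differing from the other progenitors (right). The black points of Clec4a2, Fcnb and BC051142 lie below 0 and their orange and green points above it.

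The genes of the sort gate give the last measure of these cells. Of 19 measured, 10 were higher and 9 lower, with a median of 0.01, and none was called by limma. At p under 0.05, 1 was higher (5.26%, against 3.38% of all genes) and 3 lower (15.8%, against 3.86%). Csf1r, Ly6c2 and Itgam, which encodes CD11b, were the lower ones (Itgam -0.36 ± 0.15). Itga2, which encodes the lineage antigen CD49b, was the higher one, at a mean of 5.30 against 4.53 (0.77 ± 0.28, adjusted p = 0.568), with control arrays from 3.91 to 5.36. Eng, which encodes CD105, differed by -0.33 ± 0.24, and Fcgr3 by -0.03 ± 0.20.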

How the data were processed

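Biotin-labelled cDNA was hybridised to arrays, and the deposited table gives the log2 signal of each probe set as the authors computed it. The submitters' processing notes name Transcriptome Analysis Console and Partek. Software versions and normalization: not given in the sources used here. These values were used as deposited, and none was missing. Probe sets with 1 gene symbol (23521 of 41345) were used, and for the 1082 genes with several the brightest was taken, which left 22180 genes without a filter on dim ones. No build is named for the table, so no gene coordinates from it are printed. Depth has no meaning for arrays, and their number limits the precision.

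All 6 combinations of cell and water got their own mean in limma 3.58.1 in R 4.3.3 over 16 arrays (lmFit and eBayes, 10 residual degrees of freedom, prior degrees of freedom 5.28, prior SD 0.199). The contrasts were antibiotic minus control in CMPs and that difference minus the mean of the other 2. P-values are two-sided and adjusted by Benjamini-Hochberg over all genes, with the false discovery rate under 0.2 that the series' design text states. The fit was tested on simulated data. Differences are log2 values with standard errors. The 34 gene lists (967 of 1065 entries measured) are described by counts and medians only. Members and lists were chosen with earlier results of these data known. Genes named came from those called, the 15 of smallest p in each direction and the 4 of smallest p in each list. The gate genes, the 6 microRNA genes of smallest p and the 6 of smallest p for the difference between progenitors were added. Not every gene that this rule gives is described, Letm2, Snx31, Smim18, Crtap and Sdr16c6 among those left out. Ifnar1, Ifnar2, Irf8, Irf9, Klf1, Klf4, Cebpa, Mpo, Ccr2, Cx3cr1, Slc16a6, Gata1, Gsn, Flii, Tlr2, Tlr4, Myd88, Pax5, Ebf1, Ciita, H2-DMa, Edem1, Asb17, BC051142 and the host genes of microRNAs lie outside that rule and were chosen after their values were seen. Sequences matched by symbol for 426 of 483 microRNA genes and 16990 of 22180 genes with promoters. The alternatives were other variance models, scalings, probe set rules, thresholds, a replicate block, and leaving out each array.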

Additional observations from a re-analysis of the deposited data

Results flagged for a closer look

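The response of CMPs differed from the mean response of GMPs and cMoPs, by a limma test of the difference itself at a false discovery rate under 0.2, for 8 genes. Values are the CMP difference minus the mean of the others, in log2. CMPs responded lower for Clec4a2 (-2.07), Fcnb (-1.54), Cyyr1 (-1.34) and BC051142 (-1.14). They responded higher for H2-Aa (1.59), Scin (1.48), Zik1 (1.11) and Pkhd1l1 (1.00). A dimmer probe set of Cyyr1 differed by 0.10 in CMPs. The Cyyr1 value ran from -1.48 to -0.59 over the alternatives, with adjusted p up to 0.706 by limma. The signals of Pkhd1l1 in GMPs and cMoPs (means 2.62 to 2.80), and of BC051142 in their controls (2.62 and 2.85), are not shown to be above background, so a response there may not be measurable. Over the alternatives with a value, Clec4a2 was called in 26 of 26, Scin in 18 of 26, Fcnb in 17 of 26, Pkhd1l1 in 17 of 25, Cyyr1 in 14 of 25, BC051142 in 12 of 25, H2-Aa in 11 of 25 and Zik1 in 11 of 26, each with its sign kept.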

How the results depend on the processing

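None of the 117 genes run for the CMP difference under the alternatives changed sign, and the other genes named were not run for it. Many alternatives, such as other variance models or leaving out a GMP or cMoP array, cannot change that difference, only its error. Of 33 list medians, 15 lay on both sides of 0, those of primary and late granules, megakaryocyte genes and TLR adaptors among them. For antibiotic minus control in CMPs (9 calls), counts were 61 with trended and robust variances, 35 with genes above the median gene, 21 after quantile normalization, 16 with the replicate block, 15 without moderation of variances, 3 at adjusted p under 0.05, 2 over all probe sets and 1 with only CMP arrays fitted. All 9 were among the calls in the trended, quantile and replicate block analyses, and 5 among those above the median gene and without moderation. Leaving out 1 array gave 2 to 39 calls, and 14 without GMP antibiotic 3. For the CMP response minus mean response of GMPs and cMoPs (8 calls), counts were 14 with trended and robust variances, 13 with arrays centred on their medians, 4 without moderation, 4 with genes above the median gene, 1 over all probe sets, 1 at adjusted p under 0.05, and 1 to 16 with 1 array left out. The CMP samples share only replicate numbers: same-numbered arrays deviated together at r = -0.032, 0.028 and 0.053. Centring moved the CMP median to -0.05. Causes of these shifts were not tested. Of the values of named genes, 2972 kept their side of the threshold, 108 passed it and 52 lost it. Of the list medians, 841 moved by less than the spread between arrays and 17 by more. The 841 include the alternatives that cannot move a CMP difference, so their number is no measure of stability.

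With 3 arrays a group, no detection calls and RNA amplified from 2.6 ng, differences of dim genes are uncertain in size, and a gene that was not called is not shown to be level. Nothing in the labels tells mice from pools or gives extraction or scan batches, so neither could be separated from water.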

Other observations

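Genes of general metabolism and protein synthesis lay near the median of all genes in CMPs. Of 41 ribosomal protein genes 28 were lower, with a median of -0.02. Rps15 stood apart at 1.22 ± 0.50 (adjusted p = 0.637 by limma) and Rpl34 at -0.47 ± 0.15. The arrays of Rps15 read 5.44, 5.13 and 5.37 after antibiotics and 5.07, 2.78 and 4.43 in controls. Control 2 lay under the lower quartile of every CMP array (2.89 to 2.95), so the size rests largely on that array. The Rps15 difference ran from 0.56 to 1.71 over the alternatives. Of 41 genes of oxidative phosphorylation 24 were lower, with a median of -0.03, and none differed by more than 0.29. Cell cycle inhibitors and quiescence genes were higher in 17 of 27, with a median of 0.06: Ccng2, a cyclin of resting cells, differed by 0.35 ± 0.13, and Btg1, an antiproliferative factor, by -0.42 ± 0.15. Glucocorticoid target genes had 13 of 21 higher and a median of 0.03, with Tsc22d3, the leucine zipper gene induced by these hormones, at 0.41 ± 0.14.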
